A study of Homo sapiens with 12 samples.

Results

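A set of 52 gene IDs, out of 24916 measured in SW480 ADH human colon carcinoma cells, stood higher than in Mock cells when wild-type SPRY2 had been introduced and lower when the S112A mutant had been introduced. The members were chosen from measured values, by a rule on the deposited log2 expression values. The mean of the SPRY2 WT arrays had to lie at least 0.585 above the Mock mean, which is 1.5-fold, and the mean of the SPRY2 S112A arrays at least 0.585 below it. All 3 WT arrays also had to lie above, and all 3 S112A arrays below, all 3 Mock arrays, while any value was allowed in SPRY2 Y55F cells. The rise in WT cells and the fall in S112A cells are therefore what defines the set, and they are described here without a test. Only the Y55F arrays took no part in the choice.

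SPRY2 encodes Sprouty2, an intracellular protein that is induced by growth factor signals and in many cells dampens signalling from receptor tyrosine kinases to the RAS and ERK cascade. The tyrosine changed to phenylalanine in Y55F is phosphorylated after growth factor stimulation and then binds the ubiquitin ligase CBL. The serine changed to alanine in S112A is one of the sites phosphorylated by MAP kinase-interacting kinase, a modification known to stabilise the protein.

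RNA was measured on Affymetrix microarrays in 4 groups of 3 arrays each. The groups were SW480 ADH cells transfected with SPRY2 WT, cells transfected with SPRY2 S112A, cells transfected with SPRY2 Y55F and mock transfected cells (Mock). All were cultured for 72 h in the same serum-containing medium. SW480 ADH is an adherent subline of the SW480 colon carcinoma line. The labels leave unsaid whether the transfected cells were 1 clone or a pool for each construct, and whether the replicate numbers mark the 3 independent experiments that they mention. The p-values thus cover the spread from array to array, part of which may be technical. Where 1 clone or 1 pool stood for a construct, the construct cannot be told apart from that clone or pool. In that case the p-values do not cover the spread between separate transfections.

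The 12 arrays had alike distributions, with medians of 7.20 to 7.32 on the log2 scale. No file or table used here gives gene symbols for the Ensembl IDs. Members are therefore given by ID, and the level of SPRY2 itself, gene functions, markers of colon epithelium or of other cell types, and promoter sequences were not analysed here. These are bulk samples, in which fewer cells that express a gene and less RNA per cell cannot be told apart.

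Meeting both parts of the rule was uncommon. The WT threshold alone was passed by 325 IDs, 1.30% of all, and the S112A threshold alone by 394 IDs, 1.58%. Both were passed by 53 IDs, 0.213%, of which 1 was left out because its arrays overlapped. That ID had values of 7.08, 6.04 and 7.19 in the WT arrays and of 5.33, 6.06 and 5.01 in the Mock arrays, so that WT replicate 2 lay just below Mock replicate 2. The remaining 52 IDs, 0.209%, are the members. At the WT threshold the members just inside differed from Mock by 0.588 in both cases, and the IDs just outside, with all else met, by 0.584 and 0.576. At the S112A threshold the members just inside differed by -0.593 and -0.603, and the IDs just outside by -0.574 and -0.572.

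The median shift was of like size in both directions, for which the rule had set the same threshold. The median member stood 1.90-fold above Mock in WT cells and 1.96-fold below Mock in S112A cells. From the threshold of the rule the changes reached up to 9.28-fold in WT cells and 9.90-fold in S112A cells. The WT change was the larger for 25 members and the S112A change for 27. At least a 2-fold change was seen for 24 members in WT cells and for 26 in S112A cells, and 13 members changed at least 2-fold both ways. At least a 4-fold change was seen for 3 members in each of these groups. Between S112A and WT cells the median difference was -2.03 on the log2 scale, a 4.09-fold lower value in S112A cells, and 27 members were at least 4-fold apart.

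Every array showed the order of the groups, which for WT, Mock and S112A was set by the rule. The median over the 52 members was 9.68, 9.53 and 9.65 in the WT arrays and 7.31, 7.41 and 7.14 in the S112A arrays. It was 8.16, 8.05 and 7.96 in the Y55F arrays and 8.49, 8.33 and 8.53 in the Mock arrays. The Y55F medians, which the rule did not use, lay below those of the Mock arrays and above those of the S112A arrays, with no overlap of groups. Nothing is read from the place above S112A, since the rule had chosen IDs low in S112A cells. Over all 24916 IDs the highest and the lowest array median differed by 0.13.

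**Figure D1:**
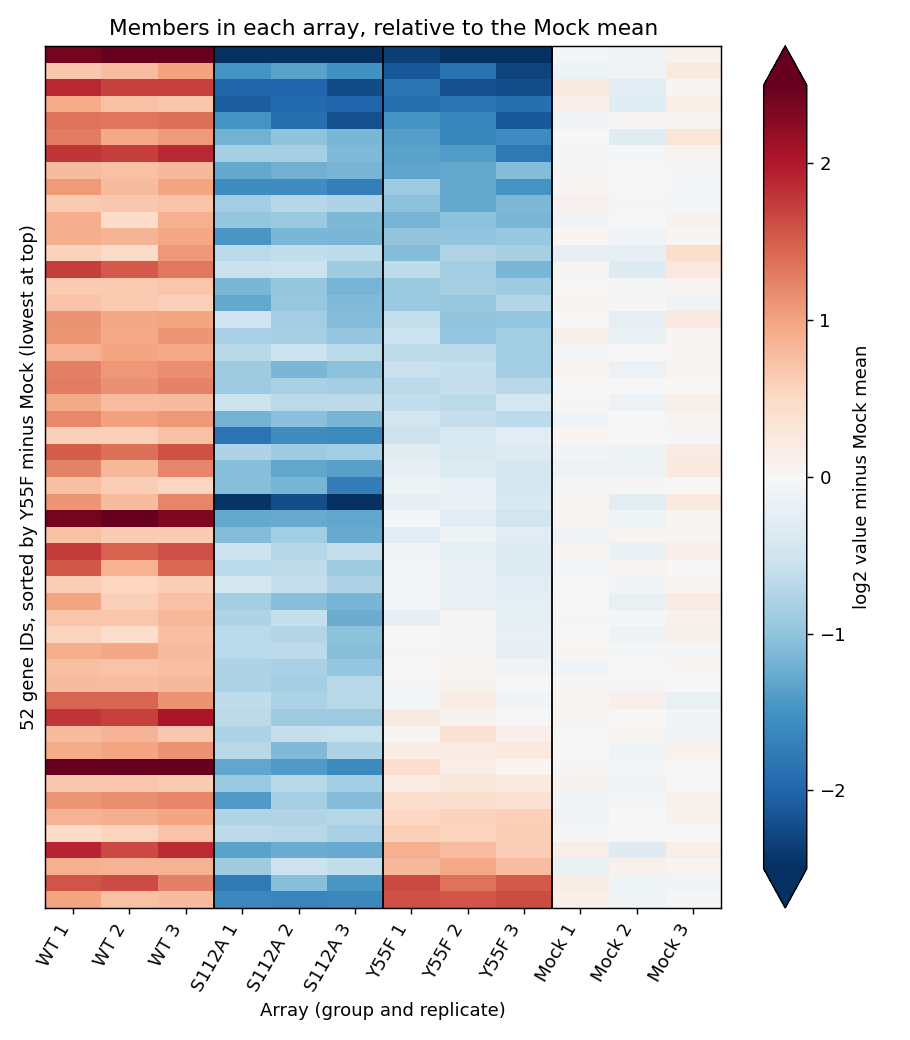
Each row is one of the 52 gene IDs and each column an array, and the colour gives the log2 value minus the Mock mean of that ID (red above, blue below, with the darkest colours also standing for values beyond the ends of the scale). The rows are sorted by Y55F minus Mock: the WT columns are red and the S112A columns blue throughout, as the rule requires, while the Y55F columns go from blue at the top, where 25 members passed the test as lower, to red at the bottom, where 8 passed as higher.

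The rule may itself have shaped the levels of the set, since an ID near background in Mock cells could hardly fall 1.5-fold. This was not tested. The members were IDs of middle to high level in Mock cells. Their group means had medians of 9.62 in WT, 7.30 in S112A, 8.07 in Y55F and 8.47 in Mock cells, while the medians over all IDs were 7.28, 7.24, 7.23 and 7.27 for these groups. In Mock cells 9 of the 52 lay below the median of all IDs, in S112A cells 25 did, and in WT cells 1 did. When all IDs were ordered by their mean over the 12 arrays, 0 of the 52 fell into the bottom 1 of 3 equal parts, but ordered by the S112A mean 8 did. Signal over background was not analysed, so for such IDs the fold below Mock may understate the change. The spread between arrays of a group was small beside the shifts. The median SD of a member was 0.09 in WT, 0.12 in S112A, 0.12 in Y55F and 0.09 in Mock cells, and 6 members had an SD above 0.3 in at least 1 group.

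ENSG00000173391 had the largest rise in WT cells. Its log2 values were 10.94, 10.96 and 10.89 in the WT arrays, 6.41, 6.31 and 6.14 in the S112A arrays, 8.14, 7.89 and 7.77 in the Y55F arrays and 7.74, 7.69 and 7.73 in the Mock arrays. The WT arrays were high by 9.28-fold and the S112A arrays low by a log2 difference of -1.43, on means of 10.93 ± 0.04 in WT, 6.29 ± 0.14 in S112A and 7.72 ± 0.03 in Mock cells (SD, n = 3). The 3 Y55F arrays lay above the 3 Mock arrays, but the log2 difference, 0.21 ± 0.09 (SE), did not pass the test (adjusted p = 0.150 and unadjusted p = 0.0345 in limma).

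ENSG00000005981 had the second largest rise in WT cells and the largest fall in S112A cells, and with 56.0-fold it was the member farthest apart between the WT and S112A groups. Its log2 values were 11.16, 11.29 and 11.36 in the WT arrays, 5.58, 5.33 and 5.48 in the S112A arrays, 6.41, 6.27 and 6.26 in the Y55F arrays and 8.75, 8.70 and 8.86 in the Mock arrays. It was 5.66-fold above Mock in WT cells and 9.90-fold below Mock in S112A cells. The Y55F arrays lay nearer to the S112A than to the Mock arrays, and no groups overlapped. Y55F cells were 5.49-fold below Mock, which on the log2 scale is -2.46 ± 0.08 (SE; limma's adjusted p = 4.48e-09), the largest fall of any member in Y55F cells.

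ENSG00000127920 had the second largest fall in S112A cells. Its log2 values were 10.20, 9.89 and 10.31 in the WT arrays, 6.64, 6.88 and 6.38 in the S112A arrays, 8.89, 8.93 and 8.71 in the Y55F arrays and 9.15, 8.81 and 9.33 in the Mock arrays. It was 2.06-fold above Mock in WT cells and 5.51-fold below Mock in S112A cells. The Y55F arrays overlapped with the Mock arrays, and the log2 difference, -0.25 ± 0.15 (SE), did not pass the test (limma's adjusted p = 0.377). Outside the Y55F group this ID varied more between replicates than most members, with an SD of 0.22 in WT, 0.25 in S112A, 0.12 in Y55F and 0.27 in Mock cells.

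ENSG00000006468, singled out after its values were seen because it rose most in Y55F cells, was one of 2 members whose Y55F mean lay above the WT mean. Its log2 values were 9.34, 9.08 and 9.13 in the WT arrays, 6.74, 6.69 and 6.74 in the S112A arrays, 9.97, 9.93 and 9.98 in the Y55F arrays and 8.48, 8.24 and 8.33 in the Mock arrays. No groups overlapped, and the order was Y55F, WT, Mock and S112A from high to low. Y55F cells stood 3.05-fold above Mock, which on the log2 scale is 1.61 ± 0.07 (SE; limma's adjusted p = 6.23e-08), beside 1.78-fold above Mock in WT cells and 3.09-fold below Mock in S112A cells.

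**Figure D2:**
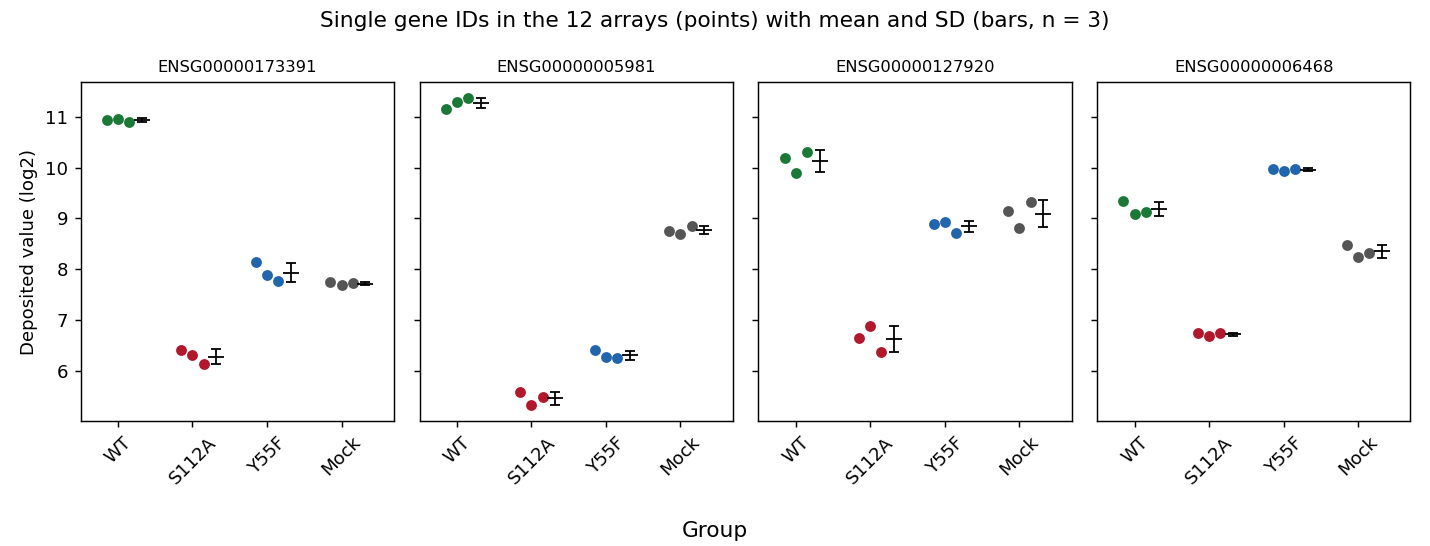
The deposited log2 value of 4 members is shown in each of the 12 arrays (points), by group, with the mean and SD of each group (bars, n = 3). The Y55F points lie beside the Mock points for ENSG00000173391 and ENSG00000127920, nearer to the S112A than to the Mock points for ENSG00000005981, and above the WT points for ENSG00000006468.

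The comparison of Y55F with Mock is the one in which members could be tested on arrays that the rule did not use, although the Mock arrays are shared with it. The set split in Y55F cells, mainly to lower values. In limma, fitted to all IDs, 33 of the 52 members passed at an adjusted p under 0.05, which is 63.5% of the members, where 16.1% of all IDs passed. Lower in Y55F cells were 25 members, 48.1%, where 7.95% of all IDs were lower, and higher were 8 members, 15.4%, where 8.18% of all IDs were higher. The other 19 members did not pass. All IDs include the bottom part by mean level, described above, which held no members. With that part left out, 4043 of 16611 IDs passed, 2065 higher and 1978 lower, a larger share than of all IDs. The members kept their calls, with 8 higher and 25 lower. The shares of all IDs that passed thus overstate the contrast with the members. The 15.4% of members that were higher lay nearer to the share of all IDs than the 48.1% that were lower. No excess of higher members is read from it. At least a 1.5-fold change was called for 21 members that fell and 5 that rose, where 2.05% and 1.57% of all IDs did so. With at least a 2-fold change 11 members fell and 2 rose, where 0.771% and 0.305% of all IDs did so. The median of Y55F minus Mock was -0.29 over the members and 0.00 over all IDs (log2), and the Y55F mean lay below the Mock mean for 38 of the 52 members, against 12420 of all 24916 IDs.

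By the separation of single arrays, the members stood apart from all IDs on the lower side only. All 3 Y55F arrays lay below all 3 Mock arrays for 28 members, 53.8%, where this held for 13.8% of all IDs. They lay above them for 10 members, 19.2%, which is near the 15.3% of all IDs, so nothing is read from that count. For 14 members the arrays of these groups overlapped, and none of those 14 passed the test. Among all IDs the calls in Y55F cells were nearly balanced on the deposited values, with 2039 higher and 1980 lower. Centring the arrays on their medians gave 2652 higher and 1505 lower among all IDs, and 8 higher and 24 lower among the members.

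**Figure D3:**
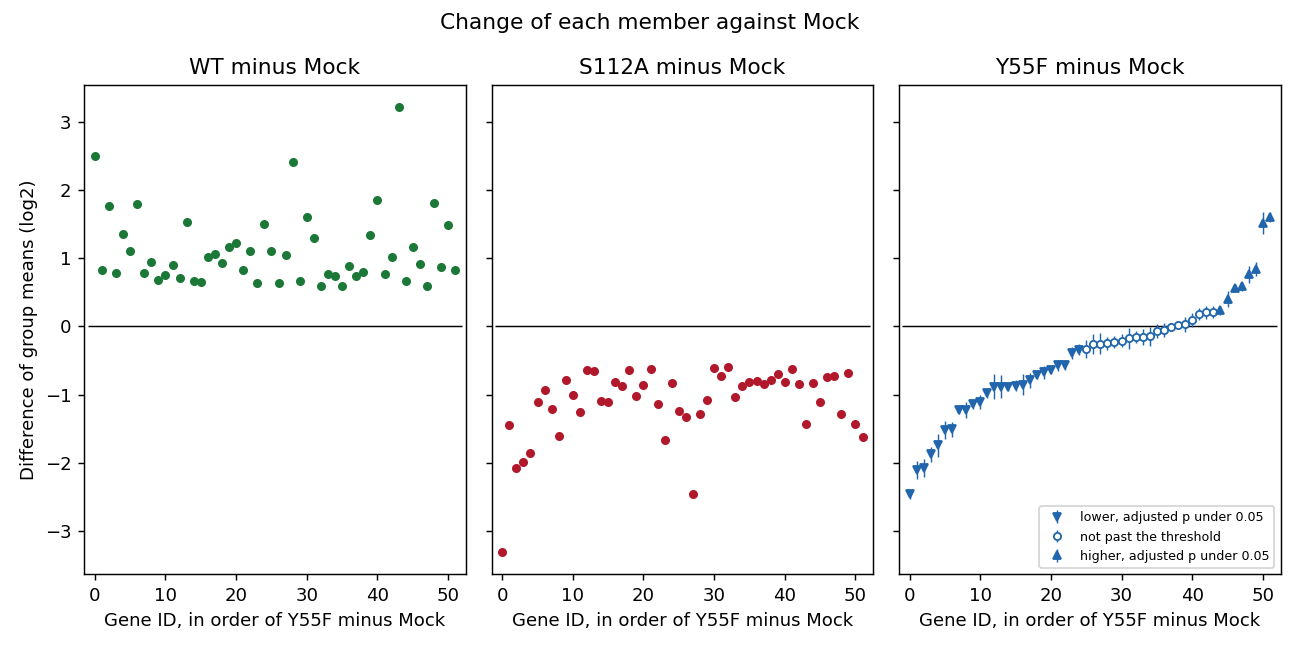
Each panel shows the difference of group means from Mock (log2) for the 52 members, in the same order, by Y55F minus Mock, in all 3 panels; bars in the Y55F panel are the SE from limma and filled triangles mark an adjusted p under 0.05. The WT points lie above and the S112A points below the line by the rule, whereas the Y55F points run from -2.46 to 1.61, with 25 members called lower and 8 called higher.

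The 25 members that fell in Y55F cells were 1.85-fold below Mock at the median, with a range of 1.27-fold to 5.49-fold. Side by side, their median fall in S112A cells was 2.14-fold and their median rise in WT cells 1.93-fold. Taken over the 25, the Y55F and S112A medians were close, while single members differed both ways, with Y55F minus S112A from -0.66 to 1.27 (log2). Nothing is read from this closeness, since the rule had chosen the 25 below Mock in S112A cells and the test in Y55F cells. The array medians were 7.31, 7.28 and 7.23 in Y55F cells and 7.26, 7.28 and 7.35 in S112A cells, against 8.74, 8.27 and 8.60 in Mock cells. For 10 of the 25 the Y55F and S112A arrays overlapped, for 10 the Y55F arrays all lay above the S112A arrays, and for 5 they all lay below. Over all IDs the Y55F arrays lay wholly above the S112A arrays for 16.2% and wholly below them for 13.3%. The Y55F mean was at or below the S112A mean for 11 of the 25.

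The 8 members that rose in Y55F cells were 1.60-fold above Mock at the median, with a range of 1.18-fold to 3.05-fold. Their array medians were 9.80, 9.83 and 9.84 in Y55F cells, near the WT medians of 9.91, 9.94 and 9.88 and above the Mock medians of 8.80, 8.78 and 8.79. Nothing is read from this either, since the rule had chosen the 8 above Mock in WT cells and the test in Y55F cells. Against the WT arrays, the Y55F arrays lay wholly above for 1 member, overlapped for 3 and lay wholly below for 4, where 14.2% of all IDs lay wholly above and 17.4% wholly below. At the median these 8 members stood 1.86-fold above Mock in WT cells and 1.95-fold below it in S112A cells, which is near the values of the whole set.

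The 19 members that did not pass had Y55F differences from Mock of -0.33 to 0.21 (log2), 13 of them below and 6 above 0. For each of the 19, all 3 Y55F arrays lay above all 3 S112A arrays and below all 3 WT arrays, where 16.2% of all IDs met the first and 17.4% the second condition. Nothing is read from this, since the rule had set the WT and S112A arrays apart from Mock. Their S112A falls had a median of 1.80-fold and reached 5.51-fold, and their WT rises had a median of 1.85-fold and reached 9.28-fold. Members with large shifts in WT or S112A cells were thus also found among those that did not pass in Y55F cells. Not passing depends on the spread as well as on the distance from Mock. Of the 26 members at least 2-fold down in S112A cells, 15 were lower in Y55F cells, 4 were higher and 7 did not pass. Since the WT and S112A values had chosen the members, their position against Y55F is a description and was not tested.

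By its mean, Y55F lay at or below S112A for 11 of the 52 members, between S112A and Mock for 27, between Mock and WT for 12, and at or above WT for 2. All 3 Y55F arrays were below all 3 WT arrays for 48 of the 52, where this held for 17.4% of all IDs, a count from which nothing is read, since the rule had chosen IDs high in WT.

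The opposite set, chosen by the same rule with both signs turned, held 64 IDs, 0.257% of all. The shares that passed between Y55F and Mock were near each other, with 33 of the 52 members, 63.5%, and 40 of the 64 opposite IDs, 62.5%. Among the members 8 were higher and 25 lower in Y55F cells, and in the opposite set 18 were higher and 22 lower. The median of Y55F minus Mock was -0.29 in the members and -0.04 in the opposite set (log2). Both sets share the Y55F and Mock arrays, and the difference between them was not tested.

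The IDs that passed a threshold of the rule without being members give the setting for the split in Y55F cells, where 15.4% of the members were higher and 48.1% lower. The WT list and the S112A list both hold the 1 ID that passed both thresholds with overlapping arrays. Neither list required the separation of single arrays from Mock that the members had to meet. Of the 273 IDs that passed the WT threshold without being members, 94 were higher in Y55F cells and 34 lower, which is 34.4% and 12.5%. Of the 342 that passed the S112A threshold without being members, 21 were higher and 188 lower, 6.14% and 54.97%. The members lay between these lists in both directions and nearer to the IDs that fell in S112A cells. All these lists were chosen with the Mock arrays that the Y55F comparison uses, and the differences between the lists were not tested.

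**Figure D4:**
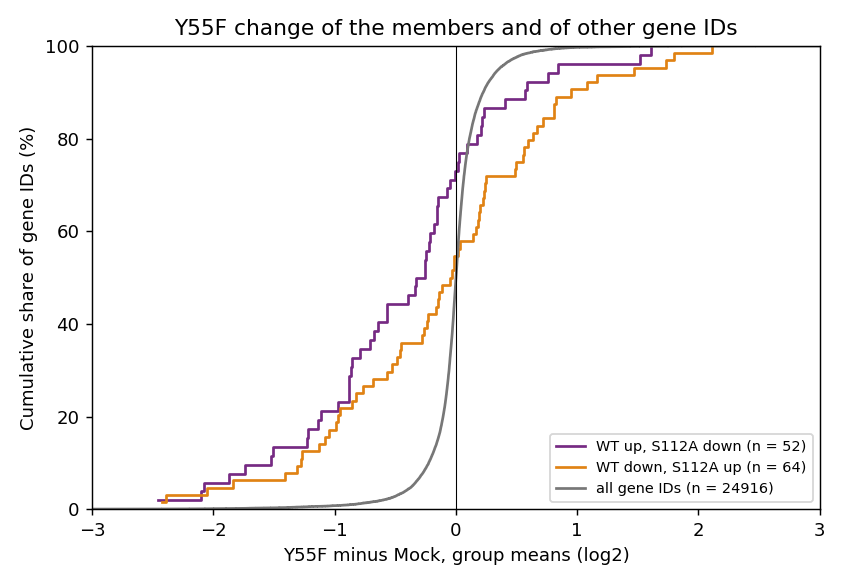
The cumulative share of gene IDs (%) is plotted against Y55F minus Mock (log2, group means) for the 52 members, the 64 IDs of the opposite set and all 24916 IDs, whose few most extreme values lie outside the axis. The curve of the members lies to the left of that of all IDs at its middle, with medians of -0.29 and 0.00, and both smaller sets spread more widely than all IDs.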

How the data were processed

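The authors deposited a log2 value for each Ensembl gene ID in each array. The submitters' processing notes name RMA and affy, and versions, array model and annotation are not given in the sources used here. Deposited values ranged as on a log2 scale. The values show levels relative to the rest of the same array, and having 3 arrays in a group limits the precision.

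The rule was applied to all 24916 IDs with no filter. Y55F was compared with Mock in limma 3.58.1 (R 4.3.3), with 1 mean per group over all 12 arrays (8 residual degrees of freedom), eBayes, and Benjamini-Hochberg adjustment over all IDs at 0.05. The procedure was tested on simulated data. The members, lists and tests were chosen with earlier results of these data known.

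The gene table's Ensembl column held 0 entries. With no symbols, the rule for named genes took the 2 IDs with the largest rises in WT and the 2 with the largest falls in S112A cells, 3 IDs in all, and 1 was added later. The 24 gene lists and the marker check of the design need symbols and were not run. Same-numbered Y55F and Mock arrays' deviations correlated at 0.08, 0.41 and -0.04, not all above the minimum of 0.1. The numbers were therefore not taken as pairs in this comparison. The correlations were 0.14, 0.46 and 0.36 for WT and Mock and 0.09, 0.05 and -0.29 for S112A and Mock, which were not tested here. Alternatives were other scalings, weights, filters, fits and leaving out each array.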

Additional observations from a re-analysis of the deposited data

Results flagged for a closer look

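For the 4 named IDs, constructs that moved in opposite directions from Mock in every array are listed here; differences are in log2, and none was tested. WT and S112A cells moved oppositely by the rule that chose the IDs, with WT minus S112A at 4.65 for ENSG00000173391, 5.81 for ENSG00000005981, 3.50 for ENSG00000127920 and 2.46 for ENSG00000006468. In Y55F cells, ENSG00000005981 moved oppositely to WT, with Y55F minus WT at -4.96. ENSG00000006468 moved oppositely to S112A, with Y55F minus S112A at 3.23. The same held for ENSG00000173391, at 1.65, although its Y55F difference from Mock did not pass the test.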

How the results depend on the processing

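The alternatives gave 231 values, of which 228 either kept the call and its direction or, for counts, moved by no more than 1.5 times. These values are not separate checks. Higher, lower and total counts overlap, and the fits without a WT or S112A array kept every Y55F and Mock array. The limit of 1.5 times is also wide, and a move from 4019 to 5749 of all IDs called fell within it. Requiring at least 1.5-fold beside the adjusted p, a stricter rule, left 5 members higher in Y55F cells and 901 of all IDs called, and a threshold of 2-fold each way left 13 members. Leaving out 1 array gave 30 to 33 members called in Y55F cells (6 to 8 higher, 24 to 26 lower), 37 to 43 of the opposite set (15 to 19 higher, 22 to 25 lower), 3002 to 4282 of all IDs and 50 to 57 members by the rule, of which at least 47 were among the 52. The replicate number as a block left 33 members called, 8 higher and 25 lower, with 4580 of all IDs, 44 of the opposite set and, with the mean of each number removed, 52 members by the rule. It changed no call of the 4 named IDs. Array weights ran from 0.47 to 6.06. With them 34 members (7 higher and 27 lower), 47 of the opposite set and 5749 of all IDs were called. As a hint from the data, 11 of the 12 arrays had their highest correlation across groups with a same-numbered array, and between the Y55F and Mock groups alone 3 of 6 did. Over the 19 alternatives run for each, the Y55F difference of ENSG00000005981 lay between -2.51 and -2.41 (adjusted p in limma at most 3.29e-06) and that of ENSG00000006468 between 1.51 and 1.67 (at most 1.40e-05). ENSG00000173391 and ENSG00000127920 passed under none of them, with adjusted p in limma of 0.0529 to 0.458 and 0.125 to 0.706. Many of the 19 could change only the adjusted p and not the difference itself, which narrows these ranges. These were leaving out a WT or S112A array, leaving out the IDs of lowest mean, and fitting only Y55F and Mock arrays. The replicate block and the prior variance with a trend were the others. Signal over background was not analysed, which limits the folds of IDs low in S112A cells.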
